A study of Homo sapiens with 9 samples.

Results

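Serum response factor (SRF), actins and actin-binding proteins linked to SRF, and the actin-oxidizing enzyme MICAL2 were followed through 9 RNA-Seq libraries. The 10 genes (SRF, MICAL2, ACTB, ACTG1, ACTA2, TAGLN, TAGLN2, CNN2, VCL and MYL9) were found by their symbols among the 58735 genes of the deposited count table. They were proposed with results of these data known, so their levels and differences are given here as a description without a p-value. How many of them passed a threshold is set beside the share of all genes that did, and nothing is read from it. All libraries came from MIA PaCa-2, an established pancreatic cancer cell line whose genotype is labelled WT. In 3 libraries the cells had received the ERK inhibitor SCH772984 at 1 μM, in 3 compound 1, an inhibitor of TBK1 and IKKε, at 1 μM, and in 3 the vehicle dimethyl sulfoxide (DMSO) at 0.1%, each for 24-h. The study compared these treatments to look for genes and pathways that ERK and TBK1–IKKε regulate in common. The cells are a single line, and nothing in the labels says that the replicates were separate cultures, so p-values measure the spread between these samples, which may be technical.

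SRF is a transcription factor that binds the CArG box, a short element with CC and GG around a run of A and T letters. It works with either of a pair of cofactor families. Myocardin-related transcription factors (MRTFs) are held inactive by actin monomers and turn on cytoskeletal genes when monomers are built into filaments. Ternary complex factors of the ETS family are phosphorylated by ERK and turn on immediate early genes. MICAL2 oxidizes actin in the nucleus, which lowers nuclear actin and frees MRTFs to act with SRF. Genes for actins, transgelins, calponins, vinculin and myosin light chains have been described as SRF targets, and their products build, bind or pull on actin filaments.

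Promoter windows from RefSeq (GRCh38.p14, 250 bases before to 50 bases after a transcription start) were on hand for 7 of the 10 genes, in 12 windows. The CArG box was found before the start of SRF, ACTG1 and CNN2, and it stood in 1.29% of all 35116 windows. The genes were picked as linked to SRF, so nothing is read from this share. The stretches that hold the box are printed 5′ to 3′ with the box in capitals, because SRF binds such letters. Binding of SRF to these stretches was not measured. For SRF (chr6:43171119-43171268, plus strand) the 150 bases before the start hold a pair of boxes, which begin 30 and 10 bases before it. For ACTG1 (chr17:81512874-81512903, minus strand) the box begins 94 bases before the start, and for CNN2 (chr19:1026509-1026538, plus strand) 89 bases before it.
SRF: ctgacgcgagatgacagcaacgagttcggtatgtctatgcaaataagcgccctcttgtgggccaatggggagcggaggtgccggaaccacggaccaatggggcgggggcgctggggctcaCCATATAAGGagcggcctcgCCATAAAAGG
ACTG1: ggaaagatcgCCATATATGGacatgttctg
CNN2: cgcctccaggCCTTATAAGGacatttgcgc
The SRF stretch also holds CCGGAA, letters that ETS factors bind, which were searched on both strands and stood in 17.2% of all windows. They do not overlap the boxes. In ACTA2 (chr10:88952774-88952923, minus strand) the window held a pair of near matches, with 1 central letter that is neither A nor T, which begin 121 and 71 bases before the start and are in capitals. Such a near match stood in 6.94% of all windows.
ACTA2: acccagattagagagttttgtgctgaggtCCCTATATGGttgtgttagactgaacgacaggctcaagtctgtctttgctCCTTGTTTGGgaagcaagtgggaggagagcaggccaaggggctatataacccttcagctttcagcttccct
No box or near match stood in the windows of TAGLN2, VCL and MICAL2, which says only that these letters are not in these windows.

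**Figure D1:**
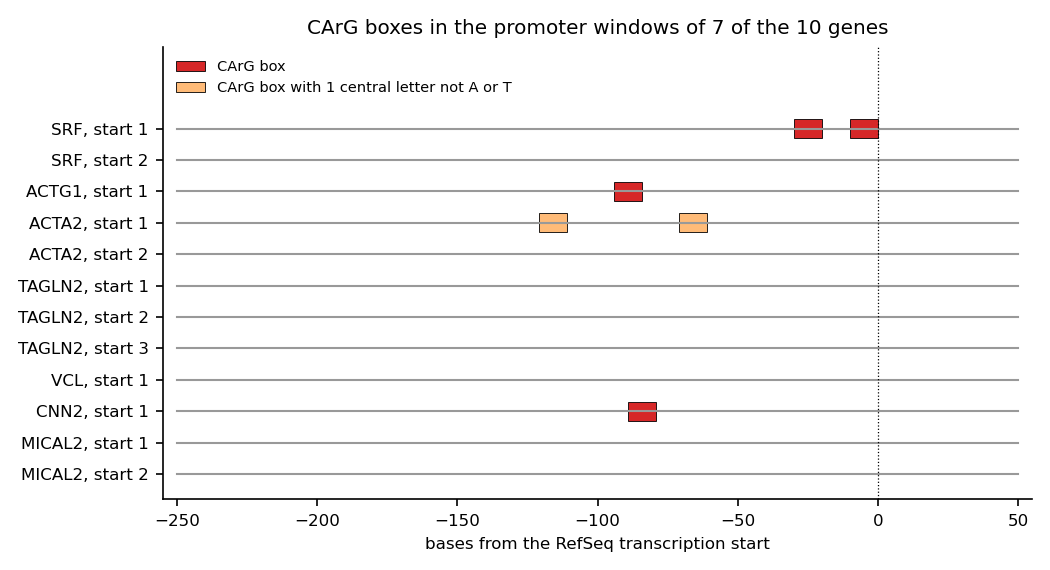
Positions of CArG boxes (red) and near matches (orange) in the 12 promoter windows, in bases from the RefSeq transcription start (dotted line), with 1 row per start. Boxes stand within 94 bases of the start in SRF, ACTG1 and CNN2, near matches in 1 of the windows of ACTA2, and neither in the windows of TAGLN2, VCL and MICAL2.

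The libraries held 9464432 to 13887859 counts, and the SCH772984 libraries were the deepest. Mitochondrially encoded genes took 3.33% to 3.98% of the counts with DMSO, 3.41% to 3.92% with compound 1 and 6.23% to 7.52% with SCH772984. Compound 1 replicate 1 stood apart: the chi-square per degree of freedom against its own replicates was 6.95 and 5.37, compared with 2.19 between the other two. Levels are in CPM, each count divided by the TMM-adjusted size of its library, differences are log2 fold changes from edgeR ± SE, and a gene passed the test at a Benjamini-Hochberg adjusted p under 0.05 over all genes tested. The epithelial keratins KRT8, KRT18 and KRT19 were abundant, whereas EPCAM was at 0 in every library and CDH1 and KRT7 had at most 5 counts. RNA from bulk cultures cannot tell fewer cells of a kind from less RNA per cell.

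SRF (ENSG00000112658, chr6:43171299-43181507) was at 145, 139 and 124 CPM with DMSO, at 114, 101 and 122 CPM with compound 1, and at 79.1, 67.0 and 75.4 CPM with SCH772984. The 3 groups did not overlap, and their order was DMSO, compound 1, SCH772984. With SCH772984 the level was 1.82-fold lower than with DMSO (log2 −0.86 ± 0.073, SE, n = 3 per group). With compound 1 it was 1.19-fold lower (log2 −0.26 ± 0.086), and the highest compound 1 library lay just under the lowest DMSO library. Between the inhibitors the log2 difference was −0.60 ± 0.097, lower with SCH772984. SRF has 1 annotated transcript in GENCODE 29, and none of its 100-base words recurs in another annotated gene.

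MICAL2 (ENSG00000133816, chr11:12094008-12359144) had another order, with compound 1 lowest. Its libraries were at 35.8, 35.2 and 36.2 CPM with DMSO and at 18.4, 24.2 and 24.2 CPM with compound 1, and the groups did not overlap. With SCH772984 they were at 37.1, 28.3 and 34.8 CPM and overlapped the DMSO libraries. The level was 1.59-fold lower with compound 1 than with DMSO (log2 −0.67 ± 0.12), which was the largest difference from DMSO among the 10 genes with that inhibitor. It rests on 173, 230 and 233 counts against 347, 316 and 328 counts. The lowest value came from compound 1 replicate 1, and without that library the log2 difference was −0.55. With SCH772984 the log2 difference from DMSO was −0.07 ± 0.096, and it was 0.10 under scaling by library size alone and −0.43 after the trend with gene length was removed. MICAL2 is the longest of the 10 gene models, with 20191 exonic bases and 36 annotated transcripts. MICAL2 was 1.51-fold higher with SCH772984 than with compound 1 (log2 0.60 ± 0.13), without overlap. After the trend with gene length was removed, this difference was 0.21 and no longer passed the threshold.

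The actins build the filaments. ACTB (ENSG00000075624, chr7:5527147-5563784), the β-cytoplasmic actin, was at 6289, 6641 and 6293 CPM with DMSO, at 6304, 5392 and 5648 CPM with compound 1, and at 4899, 4417 and 5123 CPM with SCH772984. All SCH772984 libraries lay under all others, whereas compound 1 overlapped DMSO through its replicate 1. The log2 difference from DMSO was −0.39 ± 0.060 with SCH772984 and −0.13 ± 0.065 with compound 1. ACTG1 (ENSG00000184009, chr17:81509971-81523847), the γ-cytoplasmic actin, was at 4784, 4873 and 4534 CPM with DMSO, at 4517, 3953 and 4127 CPM with compound 1, and at 3072, 2706 and 3218 CPM with SCH772984. Its 3 groups did not overlap and had the order seen for SRF. ACTG1 was 1.56-fold lower with SCH772984 (log2 −0.64 ± 0.061) and 1.11-fold lower with compound 1 (log2 −0.16 ± 0.063) than with DMSO. Between the inhibitors ACTB differed by log2 −0.25 ± 0.083 and ACTG1 by −0.47 ± 0.083, both lower with SCH772984.

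ACTA2 (ENSG00000107796, chr10:88935074-88991339), the smooth muscle α-actin, was barely counted. It had 18, 10 and 11 counts with DMSO, 13, 11 and 10 with compound 1, and 15, 14 and 31 with SCH772984. The groups overlapped in all 3 comparisons, and the log2 differences from DMSO were 0.13 ± 0.38 with SCH772984 and −0.22 ± 0.37 with compound 1, each within its SE. A difference was not detectable at this depth. Of its 100-base words, 19.2% recur in FAS or ACTA2-AS1, which overlap it on the other strand, and the strand setting of the counting is not given in the sources used here.

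The transgelins and calponins are actin-binding proteins of one family. TAGLN (ENSG00000149591, chr11:117199321-117204782), a marker of smooth muscle, was low and lay on opposite sides of DMSO with the inhibitors. It was at 4.54, 5.45 and 5.08 CPM with DMSO, at 3.41, 3.67 and 3.53 CPM with compound 1, and at 5.62, 7.03 and 7.21 CPM with SCH772984. These levels rest on 32 to 107 counts per library. The 3 groups did not overlap, with compound 1 lowest and SCH772984 highest. The log2 difference from DMSO was 0.42 ± 0.20 with SCH772984 and −0.49 ± 0.21 with compound 1, and SCH772984 was 1.89-fold above compound 1 (log2 0.92 ± 0.21). TAGLN shares 8.21% of its 100-base words with PCSK7 on the other strand, which had 359 to 630 counts.

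TAGLN2 (ENSG00000158710, chr1:159918107-159925732), the transgelin of non-muscle cells, was far more abundant. It was at 484, 480 and 472 CPM with DMSO, at 454, 403 and 435 CPM with compound 1, and at 395, 331 and 363 CPM with SCH772984. The groups kept the order DMSO, compound 1, SCH772984 without overlap, which is not the order of TAGLN. The log2 difference from DMSO was −0.38 ± 0.061 with SCH772984 and −0.14 ± 0.064 with compound 1. CNN2 (ENSG00000064666, chr19:1026581-1039068), a calponin of non-muscle cells, was at 182, 180 and 180.0 CPM with DMSO, at 198, 159 and 171 CPM with compound 1, and at 125, 115 and 126 CPM with SCH772984. SCH772984 lay under the other groups, whereas compound 1 spread to both sides of DMSO, with its replicate 1 the highest of all libraries. The log2 difference from DMSO was −0.55 ± 0.064 with SCH772984 and −0.02 ± 0.080 with compound 1.

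Vinculin and the myosin light chain MYL9 had the largest differences with SCH772984, in opposite directions. VCL (ENSG00000035403, chr10:73995193-74121363) encodes the protein that links integrin adhesions to actin filaments. It was at 1134, 1082 and 1098 CPM with DMSO, at 951, 1080 and 1077 CPM with compound 1, and at 497, 495 and 460 CPM with SCH772984. SCH772984 stood far below the rest, 2.25-fold under DMSO (log2 −1.17 ± 0.060) and 2.12-fold under compound 1 (log2 −1.08 ± 0.083). Compound 1 lay just under DMSO without overlap and differed from it by log2 −0.08 ± 0.065. VCL shares 9.86% of its 100-base words with AP3M1 on the other strand, whose 559 to 782 counts are few beside the 6009 to 10991 counts of VCL.

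MYL9 (ENSG00000101335, chr20:36541484-36551447) encodes a regulatory light chain of myosin II, whose phosphorylation starts contraction. It was at 31.4, 29.6 and 31.0 CPM with DMSO, at 34.5, 28.4 and 29.2 CPM with compound 1, and at 87.1, 75.6 and 89.7 CPM with SCH772984. It was 2.78-fold higher with SCH772984 than with DMSO (log2 1.48 ± 0.084) and 2.77-fold higher than with compound 1 (log2 1.47 ± 0.11). Compound 1 overlapped DMSO, at a log2 difference of 0.02 ± 0.11. The 100-base words of MYL9 recur in no other annotated gene.

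**Figure D2:**
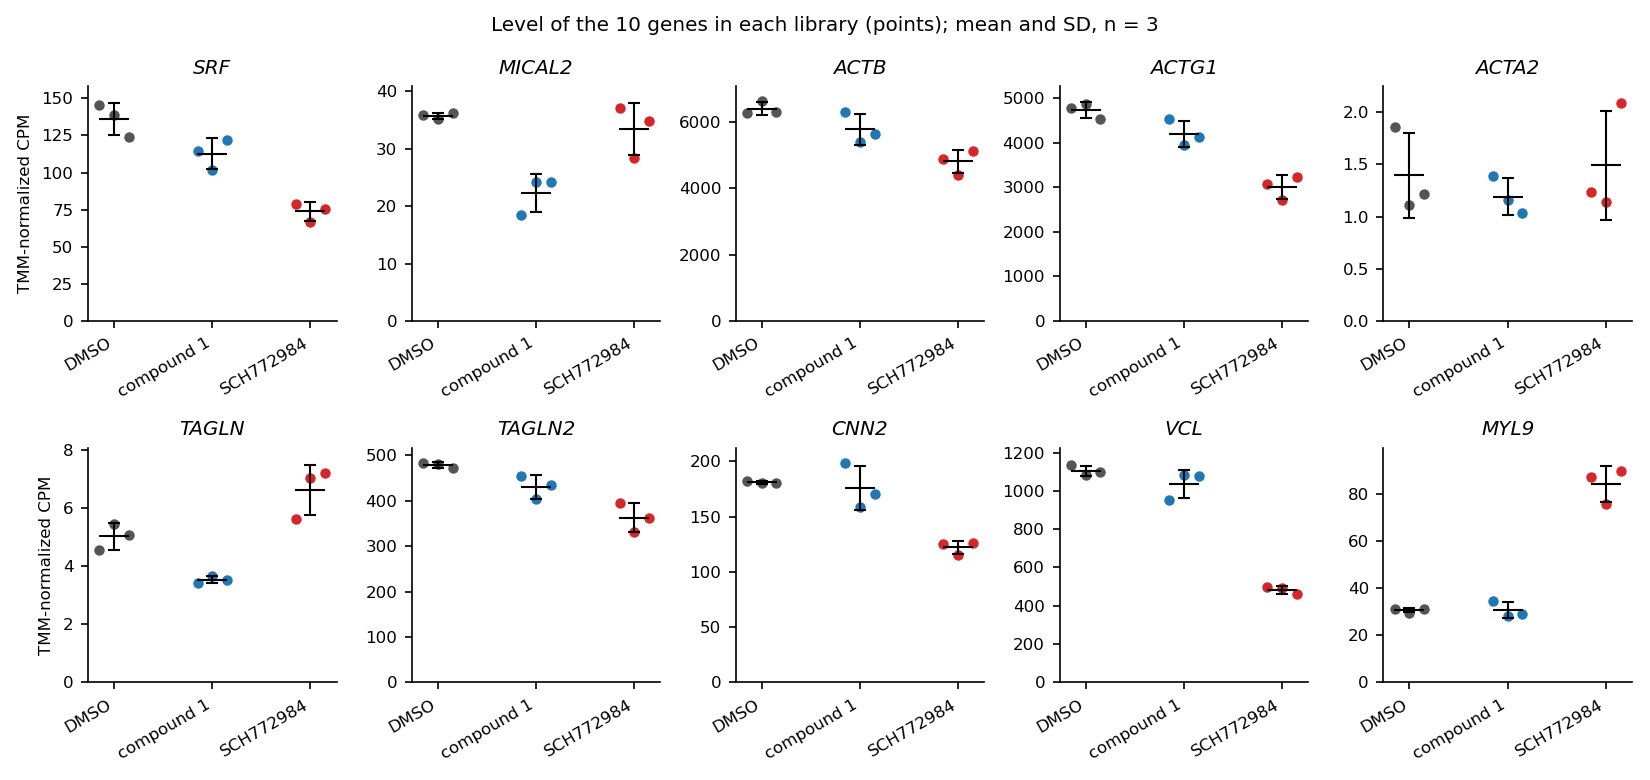
Level of each of the 10 genes in TMM-normalized CPM (y axis, from 0, scaled per gene) in the DMSO (grey), compound 1 (blue) and SCH772984 (red) libraries. Points are libraries and black marks are the mean and SD of 3. VCL, ACTG1, CNN2 and SRF sit lowest with SCH772984, MYL9 is at 28.4 to 34.5 CPM with DMSO and compound 1 and at 75.6 to 89.7 CPM with SCH772984, and MICAL2 is lowest with compound 1.

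Per kilobase of the gene model, the DMSO levels spread widely. ACTB stood at 1821 ± 57.5 CPM per kb (SD, n = 3) and ACTG1 at 1580 ± 58.8, followed by TAGLN2 at 193 ± 2.48, VCL at 110 ± 2.68 and CNN2 at 49.6 ± 0.358. SRF itself was at 32.4 ± 2.58 CPM per kb and MYL9 at 10.9 ± 0.331. MICAL2 at 1.77 ± 0.0260, TAGLN at 1.28 ± 0.117 and ACTA2 at 0.469 ± 0.136 were the lowest. No neighbours in this order came within their SDs of each other. With SCH772984 MYL9, at 29.8 ± 2.67 CPM per kb, stood above SRF, at 17.6 ± 1.47. There TAGLN, at 1.69 ± 0.222 CPM per kb, was level with MICAL2, at 1.66 ± 0.226. Together the 10 genes took 1.22% to 1.27% of all counts with DMSO, 1.10% to 1.21% with compound 1 and 0.913% to 1.02% with SCH772984.

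With SCH772984, VCL and MYL9 lay farthest from DMSO, and the 10 genes passed the threshold about as often as genes in general. All 10 passed the filter on low counts, and 7 were past the threshold in edgeR, MYL9 higher and SRF, ACTB, ACTG1, TAGLN2, VCL and CNN2 lower. Of the 13834 genes tested, 72.8% passed, 37.2% higher and 35.5% lower. TAGLN (log2 0.42) was past it as well under scaling by library size alone, with a minimum of 10 counts per library and without SCH772984 replicate 1, and MICAL2 was after the trend with gene length was removed. The groups did not overlap for 8 of the 10 (TAGLN with the 7), compared with 74.2% of all genes tested (36.8% higher and 37.4% lower). The median log2 difference of the 10 genes was −0.39 and that of all genes tested was 0.03.

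Compound 1 left most of them close to DMSO. MICAL2 alone was past the threshold, where 0.864% of the 12849 genes tested did, 0.374% lower and 0.49% higher. It no longer passed when any 1 of the DMSO libraries was left out, although its log2 difference stayed between −0.68 and −0.66. Without compound 1 replicate 1, 5 of the 10 passed, all lower, namely SRF (log2 −0.27), ACTB (−0.20), ACTG1 (−0.21), TAGLN2 (−0.18) and MICAL2 (−0.55). Over all genes that fit called 453 higher and 798 lower, compared with 63 and 48 with all libraries. Calls thus rose over all genes as well, and nothing is read from the 5. With all libraries, the compound 1 group lay wholly under DMSO for 6 of the 10 (SRF, ACTG1, TAGLN, TAGLN2, VCL and MICAL2) and wholly above it for none, compared with 12.1% of all genes lying lower, 9.37% higher and 21.4% not overlapping. The median log2 difference of the 10 genes was −0.15, compared with 0.00 for all genes.

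Set against each other, the inhibitors lay apart for 9 of the 10 genes, which were also past the threshold. SRF, ACTB, ACTG1, TAGLN2, VCL and CNN2 were lower with SCH772984 than with compound 1 and TAGLN, MYL9 and MICAL2 higher, and 66.3% of the 13863 genes tested passed, 33.7% higher and 32.6% lower. The same 9 did not overlap between the groups, compared with 69.3% of all genes, 34.7% higher and 34.6% lower. TAGLN2 did not pass without SCH772984 replicate 2 or replicate 3, and ACTB did not without replicate 2. Neither passed under scaling by library size alone or with a minimum of 10 counts per library. The comparisons with DMSO share their DMSO libraries, and each gene's values in both are given side by side above.

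**Figure D3:**
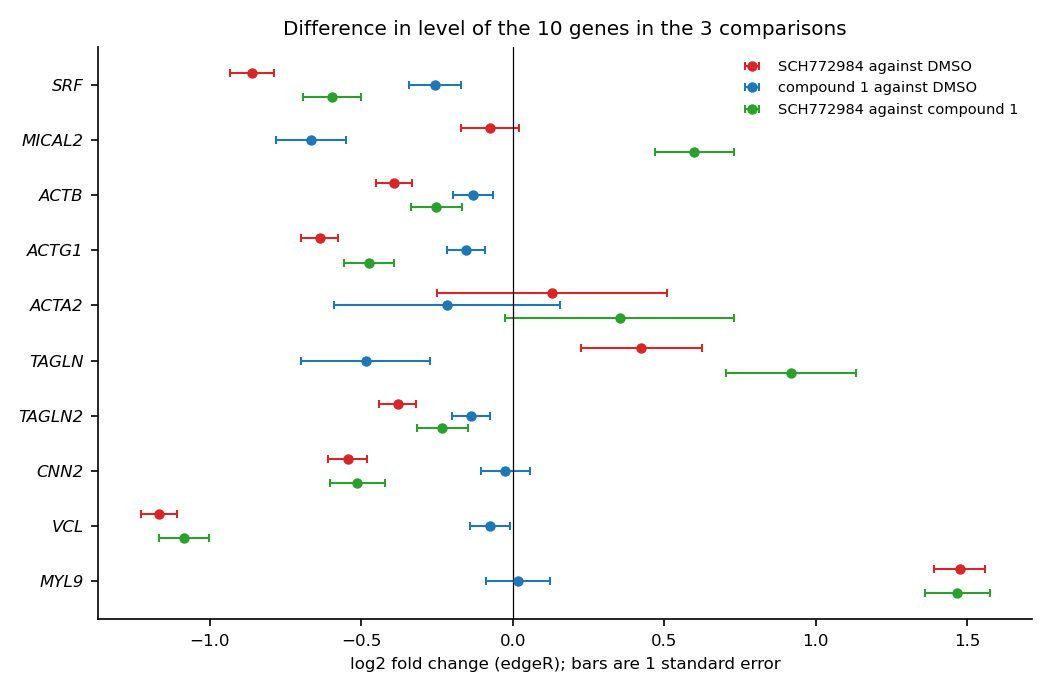
Log2 fold change of the 10 genes (x axis) in SCH772984 against DMSO (red), compound 1 against DMSO (blue) and SCH772984 against compound 1 (green), with bars of 1 SE. VCL (−1.17) and MYL9 (1.48) lie farthest from 0 with SCH772984, and MICAL2 (−0.67) with compound 1.

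Ratios of counts within a library do not depend on scaling, and several of them differed between the groups. ACTG1 per ACTB was 0.721 to 0.761 with DMSO, 0.717 to 0.733 with compound 1 and 0.613 to 0.628 with SCH772984, so the γ-actin made up a smaller part of the cytoplasmic actin counts with SCH772984. MYL9 per ACTB was 0.00446 to 0.00499 with DMSO, 0.00517 to 0.00547 with compound 1 and 0.0171 to 0.0178 with SCH772984. By this ratio compound 1 lay above DMSO without overlap, although the MYL9 levels overlapped. VCL per ACTB was 0.163 to 0.180 with DMSO and 0.0898 to 0.112 with SCH772984, and the compound 1 range of 0.151 to 0.200 spanned that of DMSO. MICAL2 per SRF ordered all 3 groups, with 0.161 to 0.238 with compound 1, 0.246 to 0.292 with DMSO and 0.423 to 0.470 with SCH772984. The transgelins separated the groups in the same order.

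**Figure D4:**
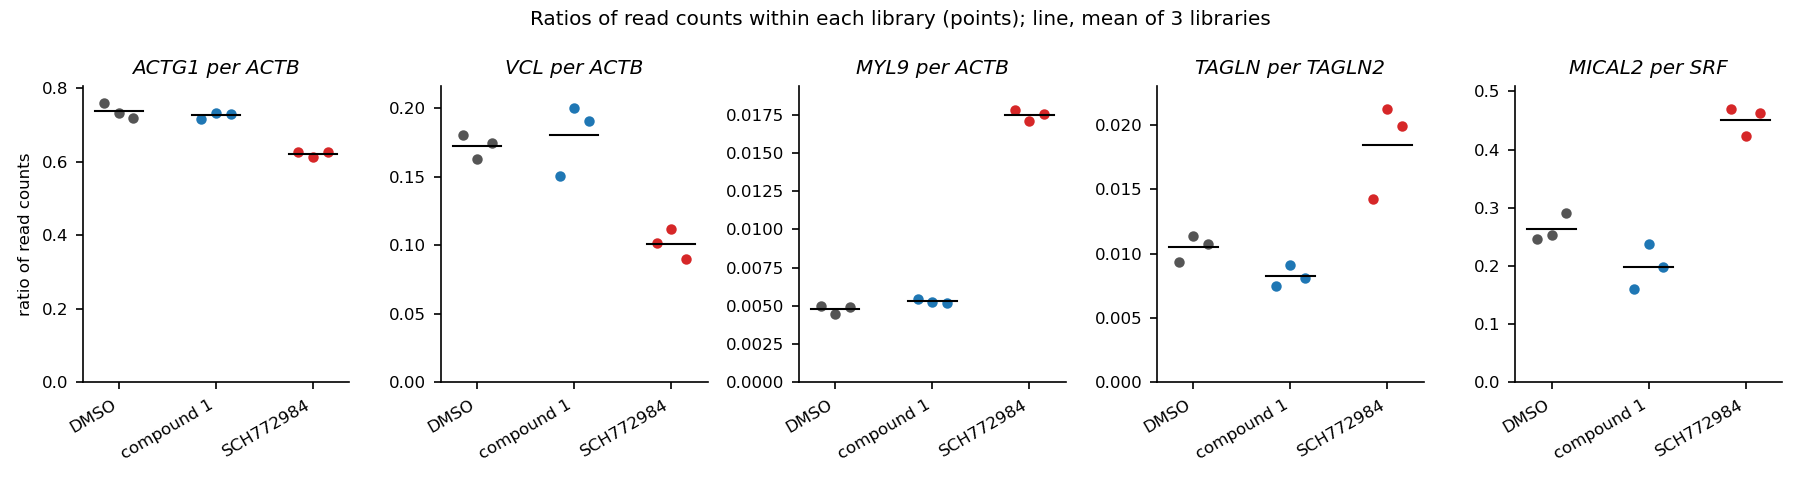
Ratio of read counts within each library (y axis, from 0) for ACTG1, VCL and MYL9 per ACTB, TAGLN per TAGLN2 and MICAL2 per SRF, with points for libraries and lines for the mean of 3. MICAL2 per SRF is lowest with compound 1 and highest with SCH772984, at 0.423 to 0.470, and ACTG1 per ACTB is lowest with SCH772984, at 0.613 to 0.628.

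Patterns over the 9 libraries were compared by the root mean square (RMS) difference of log2 CPM centred on each gene's mean, as a description. Among the 10 genes the closest pair was ACTB and TAGLN2, at 0.0548, and the next was ACTG1 and CNN2, at 0.0721. Among 11261 other protein-coding genes, SRF was closest to LDLRAD3 (0.0682) and RAB11FIP5 (0.0718), and MICAL2 to IRS2 (0.0938) and AMOTL2 (0.108). VCL was closest to NCAPD3 (0.0413) and TFRC (0.0459), and MYL9 to LTBP3 (0.0657) and SEZ6L2 (0.0662). The nearest genes were REPIN1 and TYRO3 for ACTB, TPI1 and CDK16 for ACTG1, SYMPK and SMARCA4 for TAGLN2, GAPDH and LONP1 for CNN2, PER3 and FZD5 for TAGLN, and C4orf48 and LRRC20 for ACTA2. Libraries of a group share their treatment, so such distances largely reflect the differences between groups.

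The other genes of the pathway were taken from 10 lists of 91 genes, chosen by role but with earlier results of these data known. Of the 91 genes, 79 were tested with each inhibitor against DMSO. With SCH772984, 41 fell, 19 rose and 19 did not pass the test in edgeR, with a median log2 difference of −0.29. Over all genes tested 72.8% passed, 37.2% higher and 35.5% lower, and the median was 0.03, so the total that passed was near that of genes in general. Under scaling by library size alone, 38 pathway genes fell and 30 rose, where 3911 of all genes fell and 6242 rose. Of 9 Arp2/3 subunits tested 7 fell and none rose, and the median over the 9 was −0.60. Arp2/3 nucleates branched filaments, and among its subunits ARPC5L went from 79.2 ± 0.235 to 37.1 ± 0.727 CPM (log2 −1.07 ± 0.079, adjusted p = 1.97e-16). Of 10 genes for monomer binding and filament turnover 7 fell and 2 rose. Profilin PFN1, which loads actin monomers onto filaments, fell by log2 −1.31 ± 0.060 (adjusted p = 1.3e-23). The cofilins, severing proteins, went in opposite directions. CFL2 rose by 1.21 ± 0.064 (adjusted p = 2.71e-21) from 123 ± 4.07 CPM. The more abundant CFL1 fell by −0.76 ± 0.063 (adjusted p = 1.14e-14) from 614 ± 31.2 CPM.

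Of 14 tested partners of vinculin at adhesions, 8 fell with SCH772984, 2 rose and 4 did not pass, where 35.5% of all genes fell and 37.2% rose. Paxillin (PXN), an adhesion scaffold, went from 230 ± 3.77 to 66.0 ± 4.27 CPM (log2 −1.78 ± 0.067, adjusted p = 1.03e-26). TGFB1I1, its relative, went the other way (log2 1.33 ± 0.16, adjusted p = 9.27e-10). The myosin list, to which MYL9 is related, split into 5 that rose and 3 that fell of 9. The light chain MYL12A, a close relative of MYL9, fell by log2 −2.03 ± 0.071 from 272 ± 2.52 CPM (adjusted p = 5.48e-28), so that these light chains moved in opposite directions. MYLK, the kinase of these light chains, rose by 2.49 ± 0.17 (adjusted p = 8.18e-18). Among 11 cross-linkers and tropomyosins 4 fell, led by the tropomyosin TPM3 (log2 −1.30 ± 0.061, adjusted p = 3.69e-23), and 3 rose, led by the filamin FLNC (adjusted p = 2.07e-16), from 4.62 ± 1.17 to 21.8 ± 2.78 CPM.

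Of the 6 tested cofactors of SRF, 2 rose and 3 fell with SCH772984, where 37.2% of all genes rose and 35.5% fell, and SCAI, which inhibits MRTF, did not pass (log2 0.22, adjusted p = 0.179). MRTFA and MRTFB rose, the latter by log2 0.97 ± 0.11 (adjusted p = 6.68e-11). The 3 ternary complex factors ELK1, ELK3 and ELK4 fell, ELK3 from 42.7 ± 0.407 to 4.99 ± 0.555 CPM (log2 −3.08 ± 0.13, adjusted p = 2.78e-25). Of 4 tested targets of the ternary complex factor type, EGR1 fell by log2 −3.45 ± 0.22 (adjusted p = 8.17e-18), IER2 fell as well and JUNB rose by 0.71 ± 0.11 (adjusted p = 8.4e-08).

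MICAL2 was set beside its relatives and the enzymes that reverse methionine oxidation. Of 6 tested, 3 rose and 1 fell with SCH772984, beside 37.2% and 35.5% of all genes. MSRB2, a methionine sulfoxide reductase, rose by log2 1.40 ± 0.14 (adjusted p = 7.75e-12). MICALL1, a MICAL-like protein without the oxidizing domain, fell by log2 −0.54 ± 0.090 (adjusted p = 7.57e-07). With compound 1 none of the 6 passed in edgeR at the adjusted threshold, and 1 higher and 2 lower had an unadjusted p under 0.05, as did 945 and 988 of all 12849 genes. Of the other actins, TAGLN3 and the other calponins, CNN3 was the only one with enough counts to be tested, at a log2 difference of 0.43 with SCH772984, which did not pass.

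With compound 1, 3 of the 79 pathway genes fell, where 0.374% of all genes did. The filamin FLNA went from 1550 ± 43.4 to 1145 ± 46.6 CPM (log2 −0.42 ± 0.060, adjusted p = 0.00477), the α-actinin ACTN4 fell by −0.29 ± 0.064 (adjusted p = 0.0453) and the non-muscle myosin heavy chain MYH9 by −0.28 ± 0.061 (adjusted p = 0.0453). No pathway gene rose in this edgeR fit or in DESeq2, whereas 11 were higher and 16 lower at an unadjusted p under 0.05, as were 945 and 988 of all 12849 genes. The edgeR fits without a filter, with the replicate block, with the length trend removed and without compound 1 replicate 1 called 3, 2, 2 and 5 higher. The median log2 difference was −0.03, and that of all genes was 0.00. Leaving out compound 1 replicate 1 gave 16 lower and 5 higher, while calls over all genes rose to 798 lower and 453 higher. Leaving out any other library gave at most 1 lower, and ACTN4 and MYH9 did not pass without any 1 of DMSO replicate 1, 2 or 3 or compound 1 replicate 2 or 3, nor did FLNA without DMSO replicate 1 or 2.

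Between the inhibitors, 37 of 80 pathway genes tested were lower with SCH772984 than with compound 1 and 21 higher, where 32.6% of all genes were lower and 33.7% higher. The largest differences were those of EGR1 (log2 −3.74 ± 0.22, adjusted p = 9.2e-12) and ELK3 (−3.19 ± 0.15, adjusted p = 2.29e-13), followed by FLNC (2.73 ± 0.17, adjusted p = 2.12e-11), MYLK (2.61 ± 0.17, adjusted p = 2.58e-11) and the immediate early gene IER2 (−2.43 ± 0.12, adjusted p = 4.2e-13).

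**Figure D5:**
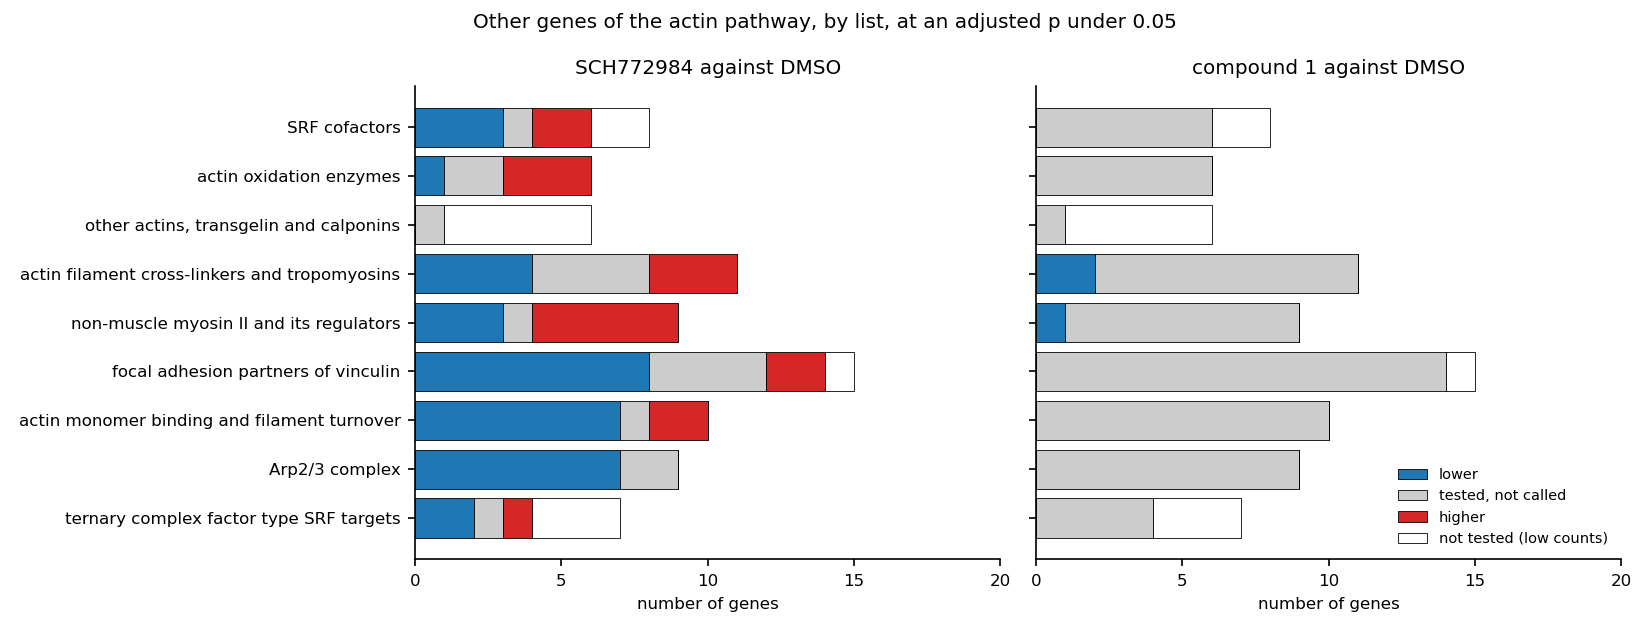
Number of genes (x axis) of each of 9 pathway lists that were lower (blue) or higher (red) at an adjusted p under 0.05, tested without passing (grey) or not tested for low counts (white), with SCH772984 (left) and compound 1 (right) against DMSO. With SCH772984, 7 of 9 Arp2/3 genes and 8 of 14 tested partners of vinculin are lower, and with compound 1, 3 genes of the lists shown are lower.

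Because ACTA2, TAGLN, CNN2 and MYL9 are also known from smooth muscle and stromal cells, markers of those cells were read beside them. The 7 smooth muscle markers summed to 1.55 to 2.11 CPM with DMSO, 1.97 to 2.34 with compound 1 and 3.72 to 5.06 with SCH772984. MYOCD was at 0 in every library, DES and ACTG2 had at most 3 counts, and CNN1 and SYNPO2 at most 10. MYH11 had 12 to 19 counts with DMSO and compound 1 and 18 to 46 with SCH772984, and LMOD1 went from 0 to 2 counts to 12 to 22. The 7 fibroblast and stellate markers summed to 469 to 518, 477 to 534 and 1039 to 1168 CPM in the same order, most of it COL1A2. All 4 of them that were tested, COL1A1, COL1A2, COL3A1 and PDGFRB, rose with SCH772984 (median log2 3.02), where 37.2% of all genes rose (median 0.03). PDGFRB went from 0 to 2 counts with DMSO to 64 to 99 counts, while DCN and LUM had at most 1 count. Of the ductal epithelial list, 6 genes summed to 3499 to 3758, 2990 to 3703 and 1095 to 1284 CPM. The 6 leukocyte and endothelial markers summed to 2.89 to 4.53, 6.23 to 6.82 and 0 to 0.539 CPM, from CDH5 at 28 to 63 counts with DMSO and compound 1, with PTPRC and CD3E at 0. With SCH772984 CDH5 and VWF had at most 4 counts each. The higher MYL9 and TAGLN levels with SCH772984 therefore came with higher smooth muscle and fibroblast sums, in libraries of a single cancer cell line. What these sums reflect was not tested.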

How the data were processed

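RNA-Seq reads of 9 MIA PaCa-2 libraries were counted per gene by Novogene, and the authors deposited 1 table of raw counts for 58735 genes. The submitters' processing notes name HISAT2 2.0.5, featureCounts 1.5.0-p3 and hg38; the strand setting is not given in the sources used here. Coordinates of 58724 genes equalled those of GENCODE 29.

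Libraries were grouped by their labels, and each pair of groups was fitted alone by the robust quasi-likelihood test of edgeR 4.0.16 under R 4.3.3, after TMM scaling and removal of low genes (filterByExpr, at least 10 counts and 15 in total). Genes passed at a Benjamini-Hochberg adjusted p under 0.05. SEs are the absolute log2 fold change divided by the square root of F. CPM used TMM factors of all 9 libraries. The steps were tested on simulated data. Alternatives were other scaling and filters, a fit of all 9 libraries, a replicate block, DESeq2 1.42.0, a correction for gene length in each library (spline, 5 degrees of freedom), other thresholds, leaving out each library and, chosen after seeing the data, leaving out mitochondrially encoded genes. Totals of 9464432 to 13887859 counts limit precision for genes with few counts, such as ACTA2.

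The 10 genes and the lists were chosen with earlier results of these data known. Of the lists, the gene with the largest rise and the largest fall that passed, at a mean of at least 5 CPM and without overlap, was named for SCH772984, and up to 5 genes that passed for the other comparisons. IER2, MRTFA, ELK1, ELK4, SCAI, CNN3 and CFL1 with SCH772984 were added after their values were seen. The members of 1 list enter the counts over all lists and are not reported here. Motifs were searched in RefSeq promoter windows (GRCh38.p14), and the 100-base words of GENCODE 29 transcripts were compared between genes.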

Additional observations from a re-analysis of the deposited data

How the results depend on the processing

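No result changed direction after passing the test. For the 10 genes, 150 of 150 alternative values with compound 1, 134 with SCH772984 and 141 between the inhibitors moved by less than 1 SD of the replicates, and 16 and 9 moved by more. CFL1 was not followed through the alternatives. For the other named genes of the lists, 371 of 372 alternative values with SCH772984 and 75 of 75 between the inhibitors stayed on their side of the threshold (SCAI passed under scaling by library size alone, log2 0.39), and 14 of 45 with compound 1 lost the call. The counts of genes with SCH772984 stayed within 1.5 times except where scaling by library size alone gave 30 pathway genes higher (38 lower) and where a 2-fold minimum left 2517 genes higher and 1472 lower (pathway 7 and 17), and between the inhibitors 2293 and 1396 (pathway 8 and 15). Scaling by library size moved the median of all genes with SCH772984 from 0.03 to 0.20, the removal of the length trend to −0.11 and testing without a filter, which adds low genes, to 0.36. The first 2 moved the share of higher calls from 51.2% to 61.5% and 42.7%.

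With compound 1 the counts were less stable. Against 63 genes higher and 48 lower, library size scaling gave 25 lower (share higher 77.3% against 56.8%; pathway 1 lower), no filter 189 and 228 (pathway 3 and 9), all 9 libraries in one fit 97 lower, DESeq2 117 and 119 (pathway 7 lower), the removal of the length trend 141 and 206 (share higher 40.6%; pathway 2 and 6), an unadjusted p 945 and 988 (pathway 11 and 16) and a 2-fold minimum 6 and 0 (pathway 0 lower). Leaving out 1 library gave 5 to 453 higher and 3 to 798 lower (pathway 0 to 5 and 0 to 16), with the highest counts without compound 1 replicate 1. The cause was not tested. The replicate block gave 193 and 219 (pathway 2 and 9). Same-numbered libraries correlated at −0.102 to 0.164, and libraries with unlike numbers at −0.199 to 0.25. With 3 libraries per group these values cannot settle whether replicate numbers pair the samples. The block changed no count by over 1.5 times in the other comparisons.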

Other observations

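Genes with a CArG box in a promoter window did not as a group share the direction of SRF. Of the 140 such genes tested with SCH772984, 56 (40%) were higher and 55 (39.3%) lower, compared with 36.7% and 38.6% of the 9813 tested genes that have a window. With SRF, ACTG1 and CNN2 left out, 137 remained, of which 56 were higher and 52 lower. With compound 1, 2 of 130 (1.54%) were lower and none higher, compared with 0.376% lower and 0.418% higher of the 9320 tested genes that have a window. These are counts without a test.

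The table also lists 30 pseudogenes of ACTB and ACTG1, 12 of which had a count. They took 12 to 64 counts per library, which is 0.0135% to 0.0517% of the ACTB and ACTG1 counts. STAMBPL1, whose gene span overlaps ACTA2 on the other strand, had 231 to 261 counts with DMSO and 54 to 85 with SCH772984, a log2 difference of −2.32, while ACTA2 had 10 to 31 counts in any library.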
